A study of Mus musculus with 32 samples.

Results

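Cell cycle and DNA replication genes were followed as 43 named mouse genes out of 25700 in the deposited tables. They were taken by symbol as 25 mitotic members, which act in chromosome segregation and cell division, and 18 S-phase members, which act in DNA synthesis and in the entry into it. They were listed by function rather than by a cut on measured values, with earlier results of these data known, and all 43 passed the filter on low counts in each comparison. The lowest count of a member in any library was 11, for Esco2, and the highest was 13430, for Mki67. Tendon assembloids are co-cultures in which a core, a fascicle explant from a mouse tail (mixed tenocytes), is clamped inside a collagen-1 hydrogel. The hydrogel was left cell-free, seeded with fibroblasts or seeded with macrophages, and the constructs were cultured for 7 days in DMEM/F12 with fetal bovine serum. Total RNA of core and hydrogel was sequenced separately after ribosomal depletion, in 32 libraries. Levels are given as CPM, counts per 1000000 counts of the library after TMM scaling, an edgeR method that makes libraries of different composition comparable.

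There were 7 groups. Hydrogel, KO core (n = 6) and hydrogel, WT core (n = 6) were fibroblast-seeded hydrogels taken from around B6.129S2-Il6tm1Kopf/J cores that were Il-6-/- or Il-6+/+. The core groups (n = 4 each) were WT core // macrophages, KO core // fibroblasts, WT core // fibroblasts, KO core // cell-free and WT core // cell-free. Per the paper, all 6 hydrogel pools of a condition but only 4 core pools passed its limits on RNA integrity and concentration. Hydrogel and core libraries can therefore differ in RNA quality. All mice were adult and of both sexes, and each core pool came from a single mouse. The seeded fibroblasts, which the labels call mixed progenitors, were Il-6+/+ in every hydrogel, came from the Achilles tendon and were pooled from several mice. A hydrogel pool therefore held the seeded cells plus any cells that had left the core. Around a KO core only cells that had left it could carry the knock-out. In imaged assembloids the paper also counted seeded fibroblasts inside the core. A core library with fibroblasts, KO cores included, can therefore hold seeded Il-6+/+ cells as well. Whether seeded macrophages entered the core was not tested. In bulk RNA, fewer cells of a type and less RNA per cell cannot be told apart, here and in each value that follows.

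Libraries held between 20360289 and 59860703 counts. Il6, the gene targeted in the knock-out, had a higher mean mRNA level in groups labelled KO, though the ranges overlapped in each pair. It averaged 15.6 CPM (range 5.63 to 39.98) in hydrogels around KO cores and 7.69 CPM (4.58 to 10.4) around WT cores. The averages were 20.01 CPM (10.47 to 37.13) in KO core // fibroblasts and 8.07 CPM (4.96 to 11.82) in WT core // fibroblasts. They were 10.6 CPM (6.51 to 20.49) in KO core // cell-free and 6.18 CPM (1.90 to 11.67) in WT core // cell-free. Whether the counted part of Il6 lies outside the disrupted part was not tested, so KO stands below for a library labelled KO. Its protein in culture supernatants, measured in a separate experiment, was not analysed here. Markers of tenocytes and fibroblasts were present in every group, with a summed level of 13 markers between 28740 and 80940 CPM per library. Markers of macrophages were present in every group as well, cell-free cores included, with a summed level of 17 markers between 2317 and 35190 CPM. The medium held macrophage colony-stimulating factor.

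A dividing cell copies its DNA in S phase and separates the copies in mitosis. Before S phase the MCM complex, the replicative helicase, is loaded onto origins by Cdc6 and Cdt1, and cyclin E with its kinase then starts synthesis. Ribonucleotide reductase, thymidylate synthase and thymidine kinase supply the nucleotides. Entry into mitosis is driven by Cdk1 with cyclins A and B, the kinetochore and checkpoint proteins attach and survey the chromosomes, and Cdc20 opens the way to anaphase. Transcription of the S-phase genes is classically under E2F factors, and that of the mitotic genes under the MuvB complex with B-Myb and FOXM1, which uses the CHR element, together with NF-Y at CCAAT boxes. Adult tenocytes divide rarely in the intact tendon.

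The promoters of both classes are shown first because the classes held different shares of the motifs searched. Windows of 300 bases (250 before and 50 after the transcription start, RefSeq, GRCm38.p6) were matched by symbol for 35 of the 43 members. Searched on both strands were the CCAAT box (CCAAT), the CHR element (TTTGAA or TTTAAA) and an E2F motif (TTTCCCGC, TTTCGCGC, TTTGCCGC or TTTGGCGC). The capitals mark every match in either orientation, so ATTGG is a CCAAT box on the other strand, and in Mcm5 an E2F match (TTTCGCGC) overlaps one on the other strand (GCGCCAAA, which is TTTGGCGC read on that strand). The first 3 sequences are the mitotic members and the next 3 the S-phase members with the lowest p in hydrogel over core for WT among those that hold a motif. Mcm5 was added after its values were seen, as an S-phase member with an E2F motif whose level is given in every sample. Positions are chr10:69352863-69353162 on the minus strand for Cdk1, chr4:118437294-118437593 (minus) for Cdc20, chr13:100786437-100786736 (minus) for Ccnb1, chr2:132253131-132253430 (minus) for Pcna, chr12:24708004-24708303 (plus) for Rrm2, chr7:38107441-38107740 (minus) for Ccne1 and chr8:75109259-75109558 (plus) for Mcm5.
Cdk1: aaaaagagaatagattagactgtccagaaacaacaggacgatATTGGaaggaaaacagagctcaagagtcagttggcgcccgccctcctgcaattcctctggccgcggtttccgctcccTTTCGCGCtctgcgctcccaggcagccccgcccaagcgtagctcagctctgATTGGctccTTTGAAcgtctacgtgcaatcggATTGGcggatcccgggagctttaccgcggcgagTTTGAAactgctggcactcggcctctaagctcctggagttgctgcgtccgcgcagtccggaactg
Cdc20: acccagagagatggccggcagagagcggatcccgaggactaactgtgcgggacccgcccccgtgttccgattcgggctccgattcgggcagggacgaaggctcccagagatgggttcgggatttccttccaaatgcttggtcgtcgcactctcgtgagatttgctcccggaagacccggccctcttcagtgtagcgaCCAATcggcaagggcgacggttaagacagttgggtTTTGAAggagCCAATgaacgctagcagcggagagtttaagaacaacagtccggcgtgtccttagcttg
Ccnb1: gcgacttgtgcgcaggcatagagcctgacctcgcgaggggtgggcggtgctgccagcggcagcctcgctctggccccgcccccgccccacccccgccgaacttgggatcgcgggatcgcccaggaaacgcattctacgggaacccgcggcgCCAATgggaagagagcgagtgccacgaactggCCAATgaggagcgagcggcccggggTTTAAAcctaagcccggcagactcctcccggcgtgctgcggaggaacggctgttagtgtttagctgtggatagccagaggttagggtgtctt
Pcna: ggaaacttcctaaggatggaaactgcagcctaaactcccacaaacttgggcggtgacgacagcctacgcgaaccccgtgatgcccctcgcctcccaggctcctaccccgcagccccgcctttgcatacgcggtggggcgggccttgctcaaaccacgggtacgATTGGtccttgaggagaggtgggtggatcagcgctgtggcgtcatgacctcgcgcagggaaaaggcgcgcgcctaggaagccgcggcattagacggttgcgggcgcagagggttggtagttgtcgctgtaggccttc
Rrm2: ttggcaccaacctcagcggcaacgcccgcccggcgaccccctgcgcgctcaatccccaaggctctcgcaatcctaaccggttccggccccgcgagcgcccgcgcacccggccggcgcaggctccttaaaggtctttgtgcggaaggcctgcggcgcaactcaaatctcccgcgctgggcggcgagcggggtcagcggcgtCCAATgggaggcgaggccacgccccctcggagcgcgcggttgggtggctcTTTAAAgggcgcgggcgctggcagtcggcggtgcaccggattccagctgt
Ccne1: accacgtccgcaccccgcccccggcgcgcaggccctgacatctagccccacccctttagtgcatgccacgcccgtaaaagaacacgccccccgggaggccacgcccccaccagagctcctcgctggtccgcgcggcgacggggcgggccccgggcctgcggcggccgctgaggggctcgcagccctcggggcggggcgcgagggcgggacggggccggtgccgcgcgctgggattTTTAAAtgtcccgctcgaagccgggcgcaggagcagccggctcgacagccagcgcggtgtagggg
Mcm5: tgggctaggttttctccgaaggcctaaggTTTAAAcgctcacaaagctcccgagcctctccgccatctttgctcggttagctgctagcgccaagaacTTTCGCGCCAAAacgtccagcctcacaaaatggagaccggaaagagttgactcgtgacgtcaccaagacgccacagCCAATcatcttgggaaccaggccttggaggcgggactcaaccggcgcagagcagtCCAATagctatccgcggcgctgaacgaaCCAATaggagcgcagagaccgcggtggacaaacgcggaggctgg

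Most mitotic members held both CCAAT boxes and CHR elements, and the E2F motif was found in a minority of S-phase members, Pcna, Rrm2 and Ccne1 above not among them. A gene with more than 1 window was counted if any of them held the motif. The CHR element was present in 17 of 20 mitotic members (85%), 6 of 15 S-phase members (40%) and 23.2% of the 11248 genes with a window that were tested in hydrogel over core for WT. The CCAAT box was present in 16 of 20 mitotic members (80%), 9 of 15 S-phase members (60%) and 42.4% of the tested genes. Both were held by 15 of 20 mitotic members (75%), as in Cdk1, Cdc20 and Ccnb1 above, and by 4 of 15 S-phase members (26.7%), against 10.8% of the tested genes. The E2F motif was found in 7 of 15 S-phase members (46.7%: Mcm3, Mcm5, Mcm6, Mcm7, Cdc6, Cdt1 and Uhrf1), in 1 of 20 mitotic members (5%: Cdk1) and in 4.42% of the tested genes. Over all 27025 genes with a window the shares were 41.1% for the CCAAT box, 30.6% for the CHR element, 13.4% for both and 2.6% for the E2F motif. A match is a description of the letters, and whether any factor bound there was not measured.

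**Figure D1:**
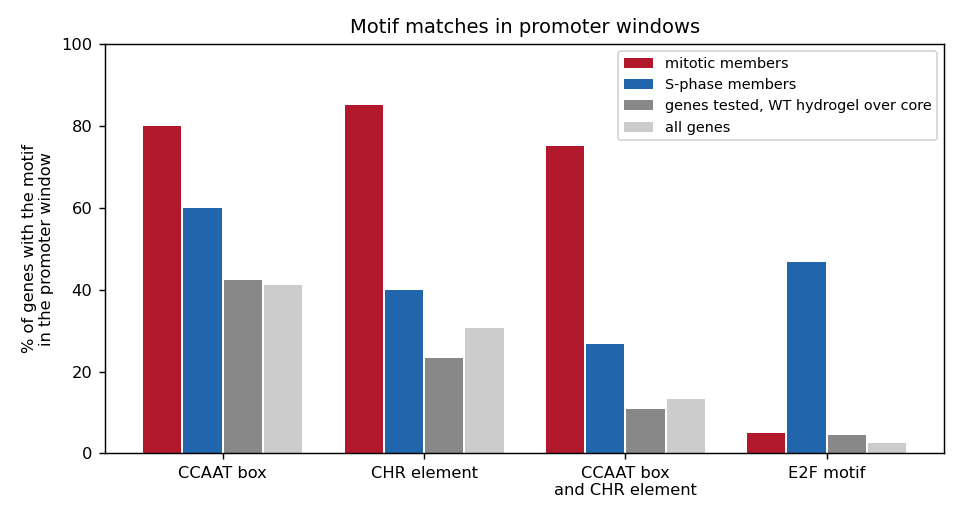
Share of genes (%, y axis) with a motif in the 300-base promoter window, for mitotic members (red), S-phase members (blue), genes tested in hydrogel over core for WT (dark grey) and all genes with a window (light grey). The bars for both elements together reach 75% in mitotic members and 26.7% in S-phase members, and those for the E2F motif 5% and 46.7%.

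Across the 7 groups most members shared their highest and their lowest group. All 25 mitotic members had their highest group mean in hydrogel, WT core and their lowest in WT core // macrophages, and 14 of 18 S-phase members had the same extremes. The other 4 were Tyms (thymidylate synthase) and Ccne2 (cyclin E2), highest in hydrogel, KO core and lowest in WT core // macrophages, Mcm7 (a helicase subunit), highest in hydrogel, WT core and lowest in WT core // fibroblasts, and Tk1 (thymidine kinase), highest in WT core // cell-free and lowest in WT core // fibroblasts. A score per library, the mean over a class of log2 CPM centred on each gene's mean over the 32 libraries, places the groups on one scale. The mitotic score was 0.62 ± 0.62 in hydrogel, KO core, 0.82 ± 0.34 in hydrogel, WT core, −1.36 ± 0.34 in WT core // macrophages, −0.43 ± 0.16 in KO core // fibroblasts, −0.48 ± 0.24 in WT core // fibroblasts, 0.09 ± 0.49 in KO core // cell-free and 0.02 ± 0.51 in WT core // cell-free (SD, n = 6 for hydrogels and 4 for cores). The S-phase score was 0.51 ± 0.48, 0.63 ± 0.23, −1.01 ± 0.15, −0.36 ± 0.12, −0.39 ± 0.16, 0.07 ± 0.42 and −0.03 ± 0.45 in the same 7 groups. Neighbours on this scale (the 2 hydrogel groups, the 2 cell-free groups, the 2 fibroblast core groups) lay within their spread of each other.

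**Figure D2:**
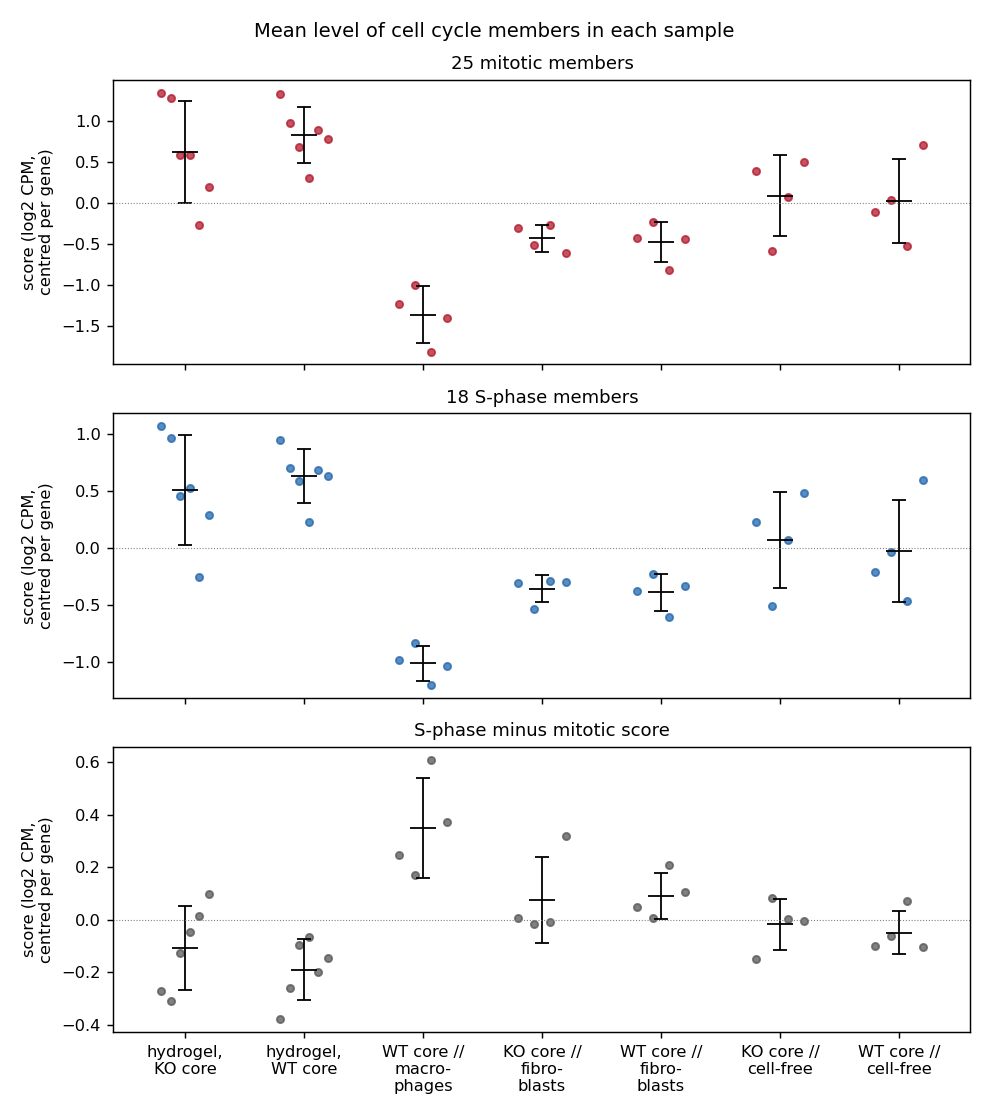
Score of each library (points; y axis, mean log2 CPM centred per gene) for the 25 mitotic members (top), the 18 S-phase members (middle) and the S-phase minus the mitotic score (bottom), with the mean and SD of each of the 7 groups. The 4 WT core // macrophages libraries hold the lowest mitotic and S-phase scores of all 32 libraries and the difference there averages 0.35 ± 0.19.

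The spread inside a group was shared by the members rather than scattered among them. In WT core // cell-free, replicate 4 was the highest library for all 43 members and replicate 3 the lowest for 42. In KO core // cell-free, replicate 2 was the lowest for 40 and replicate 4 the highest for 29, and among hydrogels around WT cores replicate 1 was the highest for 41 and replicate 4 the lowest for 42. The median SD of log2 CPM in hydrogels around KO cores was 0.62 over mitotic and 0.52 over S-phase members, against 0.32 over all genes. In hydrogels around WT cores it was 0.34, 0.24 and 0.19 for the same 3 sets. The members of a library therefore do not count as separate evidence, and each comparison below rests on 4 or 6 libraries a group.

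Mki67, which encodes the proliferation marker Ki-67, had 65.7, 77.2, 38.8 and 62.0 CPM in WT core // macrophages, against 113.7, 123.8, 73.2 and 124.4 CPM in WT core // fibroblasts and 166.0, 173.1, 113.2 and 233.8 CPM in WT core // cell-free. In KO cores it had 120.4, 94.1, 132.0 and 98.8 CPM with fibroblasts, against 152.6, 103.6, 161.3 and 227.7 CPM cell-free. Hydrogels ran between 69.1 and 265.6 CPM around KO cores (median 124.7) and between 105.5 and 290.9 CPM around WT cores (median 194.3). The macrophage cores lay wholly below the cell-free cores, while WT core // fibroblasts overlapped both.

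Mcm5, a subunit of the replicative helicase, had 8.14, 9.50, 5.37 and 7.43 CPM in WT core // macrophages, against 16.95, 18.02, 14.1 and 19.1 CPM in WT core // fibroblasts and 18.5, 24.9, 12.6 and 42.8 CPM in WT core // cell-free. In KO cores it had 18.4, 12.2, 15.6 and 17.7 CPM with fibroblasts, against 34.6, 16.2, 29.6 and 39.1 CPM cell-free. Hydrogels ran between 16 and 60.2 CPM around KO cores (median 34.1) and between 27.3 and 56.9 CPM around WT cores (median 44.6). Every macrophage core was below every other library shown here for this gene, and the cell-free cores spanned the widest range of the core groups.

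Top2a, topoisomerase II alpha, which untangles sister chromatids, had 24.0, 31.6, 14.9 and 23.1 CPM in WT core // macrophages, against 54.0, 61.4, 38.1 and 50.5 CPM in WT core // fibroblasts and 65.5, 73.0, 41.9 and 114.4 CPM in WT core // cell-free. In KO cores it had 57.1, 44.3, 56.7 and 43.3 CPM with fibroblasts, against 98.1, 41.6, 74.1 and 99.2 CPM cell-free. Hydrogels ran between 58.4 and 192.6 CPM around KO cores (median 105.7) and between 87.5 and 183.9 CPM around WT cores (median 123.3). Here the macrophage cores were apart from both other WT core groups, which overlapped each other. Ccnb1, cyclin B1, the partner of Cdk1, had 2.63, 3.72, 1.94 and 2.69 CPM in WT core // macrophages, against 7.05, 7.46, 4.42 and 6.22 CPM in WT core // fibroblasts and 9.70, 8.74, 5.38 and 14.3 CPM in WT core // cell-free. It had 7.58, 6.03, 6.42 and 4.69 CPM in KO core // fibroblasts, against 13.6, 4.97, 7.77 and 12.1 CPM in KO core // cell-free, and hydrogels ran between 7.65 and 29.96 CPM around KO cores (median 16.2) and between 13.6 and 27.1 CPM around WT cores (median 19.9). The 3 WT core groups stood in the same order as for Top2a, and the lowest hydrogel around WT cores was near the highest cell-free cores.

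Pcna in KO cores had 35.8, 33.8, 32.3 and 39.7 CPM with fibroblasts, against 77.3, 27.9, 45.4 and 63.5 CPM cell-free, and ran between 39.2 and 111.8 CPM in hydrogels around KO cores (median 70.5). The fibroblast cores lay inside the range of the cell-free cores. Tyms had 10.8, 8.77, 7.94 and 8.22 CPM in WT core // macrophages, a range that overlapped both other WT core groups.

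**Figure D3:**
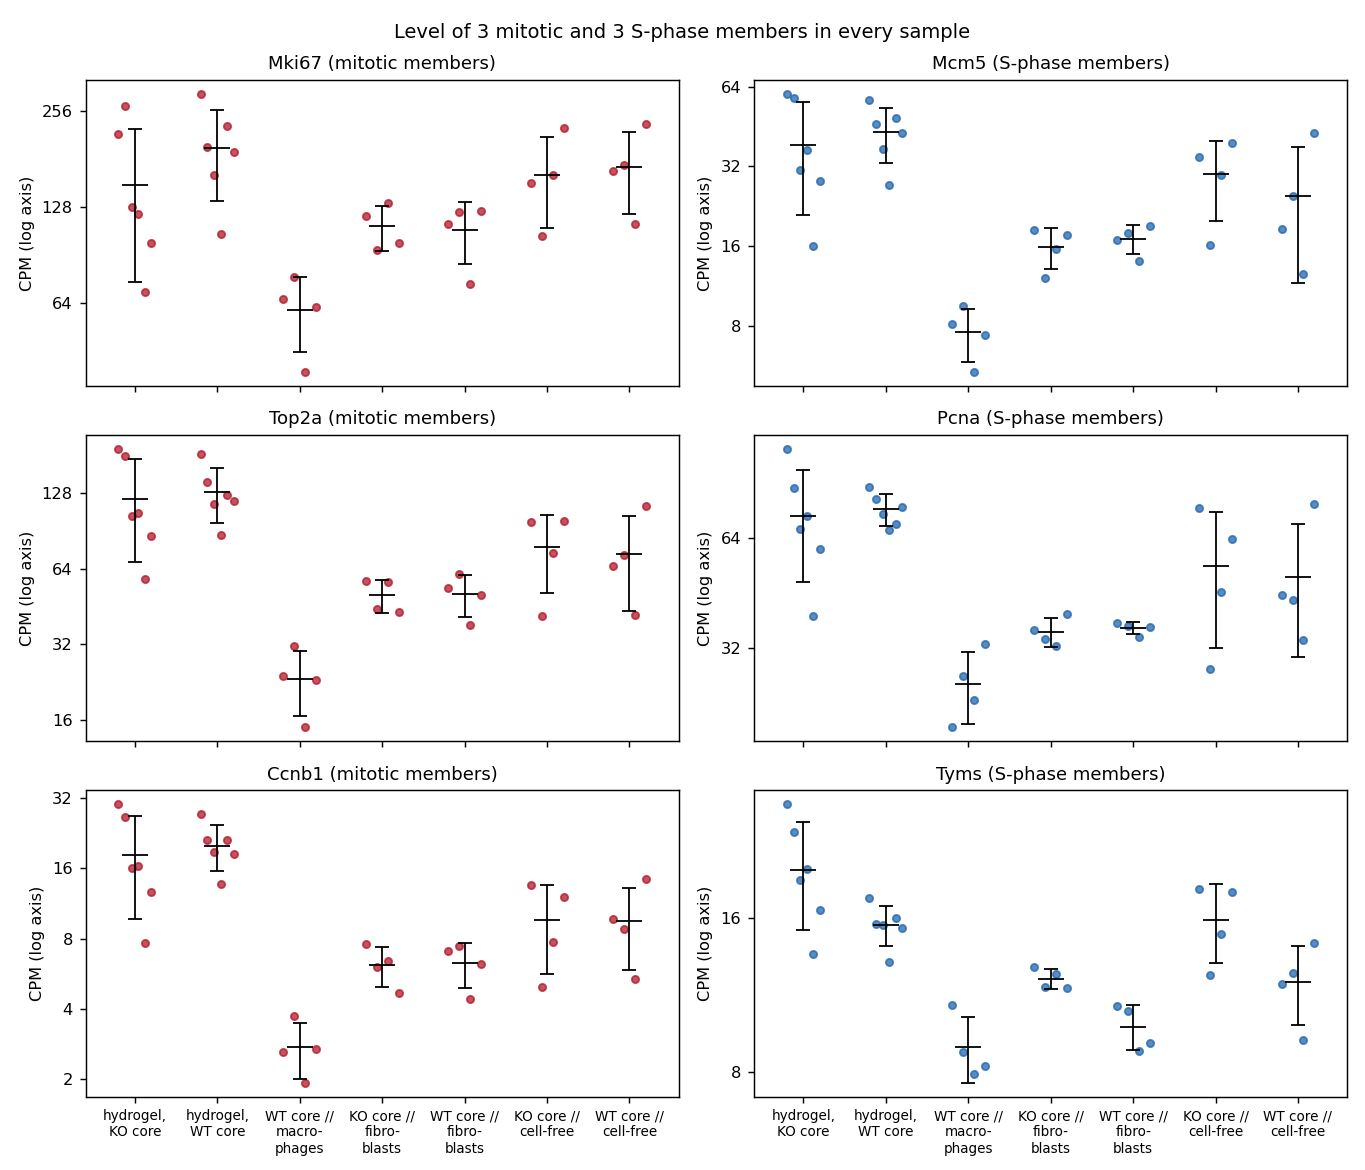
Level of 3 mitotic members (Mki67, Top2a, Ccnb1; left) and 3 S-phase members (Mcm5, Pcna, Tyms; right) in every library (points; y axis, CPM on a log axis) with the mean and SD of each of the 7 groups. Top2a averages 129.3 CPM in hydrogels around WT cores and 23.4 CPM in WT core // macrophages, while Tyms averages 15.5 and 8.94 CPM in these groups.

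The comparison of WT core // macrophages with WT core // cell-free asks how macrophages in the surrounding hydrogel relate to the core's transcriptome. Cell cycle genes were lower in these cores, with members passing the test in almost all roles. Of the 43 members, 34 passed the test lower and none higher, 23 of 25 mitotic and 11 of 18 S-phase members (edgeR quasi-likelihood test, Benjamini-Hochberg adjusted p under 0.05 over 16441 genes). Over all genes tested, 4.65% passed lower and 5.67% in either direction. The median log2 fold change was −1.48 over mitotic and −1.03 over S-phase members, against 0.00 over all genes, and all 43 were below 0, as were 49.2% of all genes. The groups did not overlap for 36 members that were lower, against 10.3% of all genes.

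By role, all 7 kinetochore and checkpoint genes, all 6 spindle and cytokinesis genes, all 4 genes of Cdk1 and its cyclins and all 3 mitotic kinases (Aurka, Aurkb, Plk1) passed lower. The helicase and licensing genes passed lower in 5 of 8 cases, the clamp, methylation and cohesion genes in 2 of 3, the G1/S regulators in 2 of 3 and the nucleotide supply genes in 2 of 4. The other genes of these roles were below 0 without passing. Cenpe, the kinetochore motor protein, had 10.99, 11, 6.94 and 8.54 CPM in WT core // macrophages, against 23.6, 25.4, 19.9 and 37.5 CPM in WT core // cell-free, a log2 fold change of −1.5 (SE 0.21, edgeR adjusted p = 0.00538). Tpx2, a spindle assembly factor that activates Aurora A, had 7.23, 8.26, 4.94 and 8.08 CPM with macrophages, against 17.1, 20.9, 16.1 and 35.0 CPM cell-free, a log2 fold change of −1.64 (SE 0.26, edgeR adjusted p = 0.00907). The lowest cell-free core lay well above the highest macrophage core in both genes.

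Among S-phase members the lowest p were those of Rrm2, the small subunit of ribonucleotide reductase, and Mcm3, a helicase subunit. By size the largest fall in this class was in Esco2 (log2 fold change −1.87, edgeR adjusted p = 0.0187). Rrm2 had 8.84, 8.31, 5.25 and 5.85 CPM in WT core // macrophages, against 16.96, 20, 14.4 and 36.6 CPM in WT core // cell-free, a log2 fold change of −1.63 (SE 0.30, edgeR adjusted p = 0.0138). Mcm3 had 13.4, 17.95, 14.2 and 18.8 CPM with macrophages, against 32.9, 34.0, 24.3 and 51.6 CPM cell-free, with a log2 fold change of −1.14 (SE 0.22, edgeR adjusted p = 0.0159). Neither gene overlapped between the groups. Mki67 fell by 1.48, Top2a (topoisomerase II alpha) by 1.65, Ccnb1 (cyclin B1) by 1.78 and Mcm5 by 1.69 on the log2 scale, with edgeR adjusted p of 0.00947, 0.0138, 0.0105 and 0.0200.

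The 9 members that did not pass were mostly S-phase genes. They were Foxm1 (−0.87), the transcription factor of mitotic genes, Cdc20 (−1.09), Pcna (−0.97), the replication clamp, Ccne2 (−0.65), Mcm4 (−0.68), Cdt1 (−0.73), Mcm7 (−0.42), Tyms (−0.41) and Tk1 (−0.18), all as log2 fold changes. Pcna had 19.4, 26.8, 23.0 and 32.7 CPM with macrophages, against 44.6, 43.2, 33.6 and 78.8 CPM cell-free, and its edgeR adjusted p was 0.0570. Tk1 had 28.9, 19.7, 17.7 and 15.8 CPM with macrophages, against 21.4, 24.0, 20.6 and 27.8 CPM cell-free, so that 1 macrophage core was above all cell-free cores. Nucleotide supply thus held both a gene with a large fall (Rrm2) and the member with the smallest (Tk1).

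**Figure D4:**
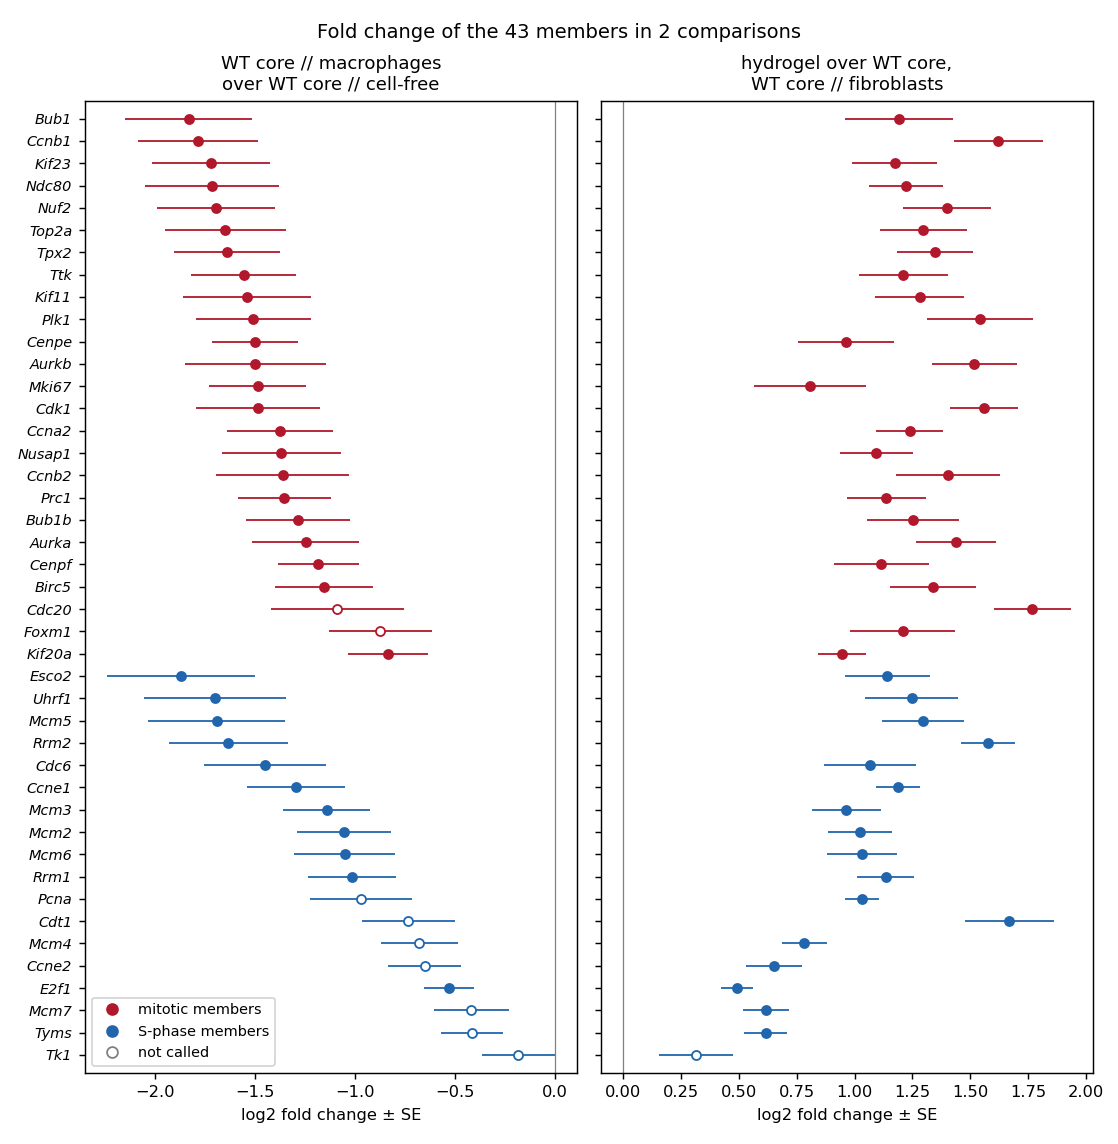
log2 fold change ± SE (x axis) of each of the 43 members in WT core // macrophages over WT core // cell-free (left) and in hydrogel over WT core of WT core // fibroblasts assembloids (right), ordered within each class by the left panel. Filled points passed the edgeR test at an adjusted p under 0.05; 34 do so on the left, all below 0, and 42 on the right, all above 0.

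Genes of the same pathway outside the 43 fell as well. Of 40 other mitotic genes 27 passed lower, led by Hmmr (log2 fold change −1.78), a spindle-associated protein, Ckap2l (−1.62) and Spc25 (−1.79), a kinetochore subunit. Of 39 other replication genes 14 passed lower, led by Rfc2 (−1.05), part of the clamp loader, Gmnn (−1.51), the licensing inhibitor geminin, and Gins2 (−0.55), part of the active helicase. Of 5 linker histones of S phase, Hist1h1a passed lower (−1.52). Upstream, 3 of 13 G1 cyclins, kinases and drivers passed lower: Cdk6 (−1.41), E2f2 (−1.42) and Ccnd1 (−2.05), cyclin D1, which averaged 64.5 ± 12.8 CPM with macrophages and 268.6 ± 112.8 CPM cell-free (SD, n = 4 each). Of 24 cell cycle brakes 6 passed lower, among them Rbl1 (−1.06), a retinoblastoma relative, Mdm2 (−0.52), the ubiquitin ligase that restrains p53, and E2f8 (−1.69), a repressor, and 1 passed higher, Gadd45a (0.80), named after its value was seen. The lists hold genes of mixed direction in their function: Gmnn and E2f8 restrain the cycle, and both peak in dividing cells. Mdm2, listed with the brakes, restrains p53, which is listed as a brake as well.

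The number of calls here rested on few libraries. Without macrophage replicate 3, replicate 1 or cell-free replicate 2 the members called fell to 10, 15 and 17. Of these 0, 2 and 3 were S-phase members, while all 43 stayed below 0. The share of all genes called in these settings is not given, so the falls are not read as particular to the members. Within each code in the sample titles (150, 152 and 154, whose meaning the labels do not give), the mitotic score differed (macrophages minus cell-free) by −1.12, −1.16 and −2.11 and the S-phase score by −0.77, −0.77 and −1.63. Of 17 macrophage markers, 2 passed lower (Itgam and Cd14) and their summed level was 5989 to 13790 CPM with macrophages and 10930 to 15560 CPM cell-free, while 0 of 13 tendon fibroblast markers passed. No macrophage marker was at 0, and the part of the markers in the result was not tested.

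Against WT core // fibroblasts the macrophage cores were lower in the same classes, with smaller differences. This comparison shares the macrophage libraries with the one above. Of the 43 members 36 passed lower and none higher (23 mitotic, 13 S-phase; edgeR), against 10.7% of 16370 genes lower and 19.5% in either direction. The median log2 fold change was −0.83 over mitotic and −0.55 over S-phase members, against 0.01 over all genes. Bub1, a spindle checkpoint kinase, had 3.21, 4.10, 1.87 and 2.55 CPM in WT core // macrophages, against 8.93, 9.67, 5.80 and 8.67 CPM in WT core // fibroblasts (log2 fold change −1.47, SE 0.24, edgeR adjusted p = 0.00500). Ccne1, cyclin E1, had 1.497, 2.17, 1.999 and 2.18 CPM with macrophages, against 4.16, 4.94, 4.18 and 4.57 CPM with fibroblasts (log2 fold change −1.17, SE 0.16, edgeR adjusted p = 0.00265). Neither gene overlapped, and 30 members in all did not, against 15.4% of all genes.

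Tpx2 (−1.01) and Mcm5 (−1.15) came next by p. The 7 members that did not pass were Cdc20, Foxm1, Mcm4, Cdt1, Tyms (−0.12), Mcm7 (0.03) and Tk1 (0.30), and these last 2 were the only members above 0. Among related genes, 28 of 40 other mitotic genes, 13 of 39 other replication genes and 6 of 13 G1 genes passed lower, with Ccnd1 at −1.54, Cdk6 at −0.93 and Ccnd2 (cyclin D2) at −0.71 on the log2 scale. Of 24 brakes 7 passed lower and 3 higher, where 10.7% of all genes passed lower and 8.85% higher. Nothing is read from the 3 that were higher. Without fibroblast replicate 2 or 1 the members called fell to 22 and 23, with the share of all genes in these settings again not given. Within the title codes 150, 152 and 154 the mitotic score differed by −0.80, −0.88 and −0.97 and the S-phase score by −0.60, −0.60 and −0.70. Of the macrophage markers 2 passed higher and 2 lower, with sums of 5989 to 13790 CPM with macrophages and 10020 to 10650 CPM with fibroblasts, and 2 of 13 tendon markers passed lower. These marker counts were near the shares of all genes, and the part of these markers in the result was not tested.

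Hydrogel and core of WT core // fibroblasts assembloids differed in nearly every member, with the hydrogel higher. The compartments differ in cell source and in tissue, which cannot be told apart here, and a large share of the transcriptome differed with them. Of the 43 members 42 passed higher (25 mitotic, 17 S-phase; edgeR), where 33.9% of 16037 genes passed higher and 69.3% passed in either direction. The median log2 fold change was 1.25 over mitotic and 1.03 over S-phase members, against 0.00 over all genes. The groups did not overlap for 41 members, against 28.5% of all genes.

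Cdk1, the kinase that drives mitosis, ran between 24.9 and 40.1 CPM in hydrogels (median 31.4) and had 9.68, 13.6, 8.94 and 10.3 CPM in cores (log2 fold change 1.56, SE 0.15, edgeR adjusted p = 3.32e-06). Cdc20, the activator of the anaphase-promoting complex, ran between 13.1 and 25.02 CPM in hydrogels (median 18.2) and had 5.13, 6.45, 5.19 and 4.64 CPM in cores (log2 fold change 1.77, SE 0.17, edgeR adjusted p = 3.60e-06). The lowest hydrogel was above the highest core in both. Pcna ran between 67.1 and 88.1 CPM in hydrogels (median 76.0) and had 37.5, 36.8, 34.3 and 36.4 CPM in cores (log2 fold change 1.03, SE 0.07, edgeR adjusted p = 6.23e-07). Rrm2 ran between 42.2 and 56.0 CPM in hydrogels (median 53.5) and had 15.8, 21.3, 14.2 and 16.03 CPM in cores (log2 fold change 1.58, SE 0.12, edgeR adjusted p = 8.39e-07). These S-phase genes were also apart in every library, and the cores were tightly grouped for Pcna.

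The smallest differences were in Tk1 (log2 fold change 0.32, edgeR adjusted p = 0.0990), the one member that did not pass, and in E2f1 (0.49), the S-phase transcription factor. Mki67 passed with a log2 fold change of 0.81 (SE 0.24, edgeR adjusted p = 0.0109) although hydrogel replicate 4 (105.5 CPM) lay below 3 of the 4 cores. All 5 linker histones were higher, led by p by Hist1h1c (0.86), Hist1h1d (1.68) and Hist1h1a (1.89). Of the other mitotic genes 39 of 40 passed higher, led by Ckap2 (1.5), Gtse1 (1.42) and Spc24 (1.6). Of the other replication genes 33 of 39 passed higher, led by Rpa1 (0.70), Gins4 (0.59) and Cdc45 (1.14), and 1 passed lower, Cdc7 (−0.79), named after its value was seen.

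Drivers and inhibitors of G1 are read against the 33.9% of all genes that passed higher in the hydrogel. Of the 13 G1 genes 9 passed higher, among them Ccnd1 (406.9 ± 28.8 CPM in hydrogels and 189.9 ± 13.7 CPM in cores), Ccnd2 (1.13 on the log2 scale) and Cks1b (0.70). Of the 24 brakes 11 passed higher, 3 lower and 10 in neither direction, and nothing is read about the list from this share. Cdkn2b, which encodes the Cdk4 inhibitor p15, averaged 68.5 ± 12.7 CPM in hydrogels and 8.86 ± 2.01 CPM in cores (SD, n = 6 and 4, log2 fold change 2.91, edgeR adjusted p = 3.52e-07). Cdkn2a, the locus of p16 and p19Arf, averaged 20.3 ± 3.54 CPM in hydrogels and 2.96 ± 0.88 CPM in cores (log2 fold change 2.75), and Cdkn1a (p21) had a log2 fold change of 1.30. The 3 lower brakes, named after their values were seen, were Cdkn1b (p27, −0.69), Rbl2 (−0.35) and Cdkn2c (−0.19).

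Markers of other cells are read against the 33.9% of all genes that passed higher in the hydrogel and the 35.4% that passed lower. Of 17 macrophage markers 12 passed higher and 1 lower in hydrogels, with sums of 10640 to 20520 CPM in hydrogels and 10020 to 10650 CPM in cores, none at 0. Of 13 tendon fibroblast markers 8 passed lower, 3 of 5 Schwann cell markers passed higher and 5 mitochondrial transcripts passed lower. The part of these in the result was not tested. Within the title codes 150, 152 and 154 all 25 mitotic members were higher in the hydrogel, with differences of the mitotic score of 1.58, 1.01 and 1.27 and of the S-phase score of 1.21, 0.83 and 1.00.

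In KO core // fibroblasts assembloids the hydrogel was again higher than the core, with a wider spread among hydrogels. Of the 43 members 39 passed higher (23 mitotic, 16 S-phase; edgeR), where 25.5% of 16084 genes passed higher and 55.6% in either direction. In the 2 classes the median log2 fold change was 1.14 over mitotic and 0.97 over S-phase members. Only 19 members did not overlap between the groups, against 19.4% of all genes. Cdc20 ran between 10.3 and 25.8 CPM in hydrogels (median 16.8) and had 6.53, 6.44, 6.32 and 4.97 CPM in cores (log2 fold change 1.52, SE 0.26, edgeR adjusted p = 0.000597). Rrm2 ran between 34.2 and 63.3 CPM in hydrogels (median 53.2) and had 14.1, 15.4, 15.7 and 16.7 CPM in cores (log2 fold change 1.70, SE 0.15, edgeR adjusted p = 2.16e-05). All 6 hydrogels were above all 4 cores in both genes.

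Cdk1 (1.41) and Ccne1 (1.09) came next in their classes. The 4 members that did not pass were Mki67 (0.40), Cenpe (0.65), Mcm3 (0.90) and Tk1 (−0.03). Hydrogel replicate 5 had 69.1 CPM of Mki67 and hydrogel replicate 2 had 265.6 CPM, on either side of the 4 cores. Linker histones (5 of 5) and 6 of 13 G1 genes, led by Cks1b (0.84), Cdk4 (0.62) and Ccnd1 (0.85), passed higher here too. Of the 24 brakes 7 passed higher, led by Cdkn2a (2.32), Ccng1 (1.25), a p53 target, and Cdkn1a (1.13), where 25.5% of all genes did. Another 2 passed lower, Cdkn1b (−0.54) and Rbl2 (−0.27), named after their values were seen, where 30.2% of all genes did. The remaining 15 did not pass, and nothing is read about the list from these shares. No macrophage marker passed in this comparison, and their summed level was 2317 to 35190 CPM in hydrogels and 9198 to 10790 CPM in cores. The part of the markers in the result was not tested. Within the title codes 150, 152 and 154 the mitotic score differed by 1.62, 0.98 and 0.58.

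Between cores with fibroblasts and cores with a cell-free hydrogel no member passed the test over all genes in either genotype. The log2 fold changes were below 0 for 42 of 43 members in both, the exception being E2f1 (0.20 in KO and 0.03 in WT cores). In KO cores 0 of 43 members passed in edgeR, where 0.432% of 15965 genes did, while 27 had an unadjusted p under 0.05 and a lower level (6.01% of all genes) and DESeq2 called 4 (Kif23, Ttk, Mcm5 and Cdc6; 3.52% of all genes). Medians of the log2 fold change were −0.56 over mitotic and −0.51 over S-phase members. Ttk, a spindle checkpoint kinase, had 2.78, 2.03, 2.55 and 2.51 CPM in KO core // fibroblasts, against 4.78, 2.95, 4.22 and 6.10 CPM in KO core // cell-free (log2 fold change −0.87, SE 0.23, edgeR adjusted p = 0.138). Its groups did not overlap (exact permutation test p = 0.0286, two-sided, the smallest that 4 against 4 allows), whereas those of Mcm5 did (log2 fold change −0.91, exact permutation p = 0.0857). With the replicate number as a block, 1 member passed, Mcm5 (2.56% of all genes). Without KO core // cell-free replicate 2, the lowest library of its group for 40 members, 26 members passed lower (16 mitotic, 10 S-phase), against 3.23% of all genes in either direction. Within the title codes 150, 152 and 154 the mitotic score differed by −0.70, −0.14 and −1.11.

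In WT cores 0 of 43 members passed in edgeR, where 4.29% of 16188 genes did, while 17 had an unadjusted p under 0.05 and a lower level (10.4% of all genes) and DESeq2 called 4 (Mki67, Cenpe, Ttk and Tk1; 10.2% of all genes). With the replicate number as a block, 3 members passed lower (Mki67, Cenpe and Tk1, where 4.78% of all genes passed). Class medians of the log2 fold change were −0.54 over mitotic and −0.43 over S-phase members, and −0.26 and −0.13 without WT core // cell-free replicate 4, the highest library of its group for all 43. Ttk had 2.50, 3.22, 2.23 and 2.62 CPM in WT core // fibroblasts, against 4.55, 3.40, 3.34 and 6.03 CPM in WT core // cell-free (log2 fold change −0.70, edgeR adjusted p = 0.0947). Tk1 had 16.6, 20.5, 14.3 and 16.2 CPM with fibroblasts, against 21.4, 24.0, 20.6 and 27.8 CPM cell-free (log2 fold change −0.46, edgeR adjusted p = 0.0746). Neither gene overlapped between the groups. Of the macrophage markers 4 of 17 passed lower and of the tendon markers 2 of 13 passed higher, and their part was not tested. Without WT core // fibroblasts replicate 2, or without WT core // cell-free replicate 3, 1 member passed. Within the title codes 150, 152 and 154 the mitotic score differed by −0.32, −0.27 and −1.14, with the largest difference in code 154.

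The loss of Il6 in the core, as labelled, was compared in hydrogels and in both kinds of core, and no member passed in any of these comparisons. In hydrogels, KO core over WT core, 0 of 43 members passed in edgeR and 0 in DESeq2, as did 0% of 15227 genes in edgeR, and 1 member had an unadjusted p under 0.05, higher around KO cores (1.79% of all genes). The median log2 fold change was −0.11 over mitotic and −0.09 over S-phase members, with 41 of 43 below 0 against 52.6% of all genes. That direction rested on single libraries. Without hydrogel, KO core replicate 5 the median over all members was 0.03 with 26 above 0, and without hydrogel, WT core replicate 1 it was 0.01 with 24 above 0. Hydrogel, KO core replicate 5 was the lowest of its group for 41 members and also had the lowest macrophage marker sum, 2317 CPM, while replicate 1 was the highest for 33 members and had the highest sum, 35190 CPM. The part of the markers in this was not tested. Within title code 150 all 18 S-phase and 23 of 25 mitotic members were higher around KO cores, within code 152 it was 14 and 20, and within code 154 all 43 were lower.

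Between KO core // fibroblasts and WT core // fibroblasts 0 members passed in edgeR and 0 in DESeq2 (0% of 16088 genes in edgeR), and 2 had an unadjusted p under 0.05, both higher in KO cores (4.64% of all genes). Between KO core // cell-free and WT core // cell-free 0 passed in edgeR and 0 in DESeq2 (0% of 16065 genes in edgeR), and 1 had an unadjusted p under 0.05 (1.18% of all genes higher). The median log2 fold changes were 0.03 over mitotic and 0.00 over S-phase members with fibroblasts, and 0.10 over both classes cell-free. The direction depended on single libraries in both. Over all members the median with fibroblasts ran from −0.05 (without WT core // fibroblasts replicate 3) to 0.08 (without WT core // fibroblasts replicate 2). Cell-free it ran from −0.04, with 10 members above 0 (without WT core // cell-free replicate 3), to 0.39, with 42 above 0 (without WT core // cell-free replicate 4), and was also below 0 without KO core // cell-free replicate 1 or 4. For the difference between genotypes of the fibroblast effect in cores, 0 members passed in edgeR, 0 in DESeq2 and 0 at an unadjusted p under 0.05, where 0% and 3.01% of 16772 genes passed in edgeR by the adjusted and the unadjusted p, with medians of −0.05 over mitotic and −0.10 over S-phase members. Its median over all members ran from −0.35 without WT core // cell-free replicate 4 to 0.11 without WT core // cell-free replicate 3.

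Tyms, thymidylate synthase, which makes the thymidine nucleotide for DNA, was the one member with an unadjusted p under 0.05 in all 3 comparisons of genotype. These share no libraries but can share mice. Tyms was named after its values were seen, and the share of all genes that reach this in all 3 is not given. In hydrogels it had 26.7, 23.6, 18.98, 19.99, 13.6 and 16.6 CPM around KO cores, against 17.6, 15.6, 15.5, 13.2, 16.02 and 15.3 CPM around WT cores (log2 fold change 0.36, SE 0.14, edgeR adjusted p = 0.9997, exact permutation p = 0.0606). In cores with fibroblasts it had 12.8, 11.8, 12.4 and 11.7 CPM in KO cores, against 10.8, 10.6, 8.802 and 9.14 CPM in WT cores (log2 fold change 0.31, SE 0.09, edgeR adjusted p = 0.457, exact permutation p = 0.0286). In cell-free cores it had 18.3, 12.4, 14.9 and 18.1 CPM in KO cores, against 11.9, 12.5, 9.24 and 14.3 CPM in WT cores (log2 fold change 0.44, SE 0.17, edgeR adjusted p = 0.9999, exact permutation p = 0.0857). The groups were apart only in cores with fibroblasts, and no comparison held after adjustment. Tk1 was the other member at an unadjusted p under 0.05 with fibroblasts (log2 fold change 0.33).

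**Figure D5:**
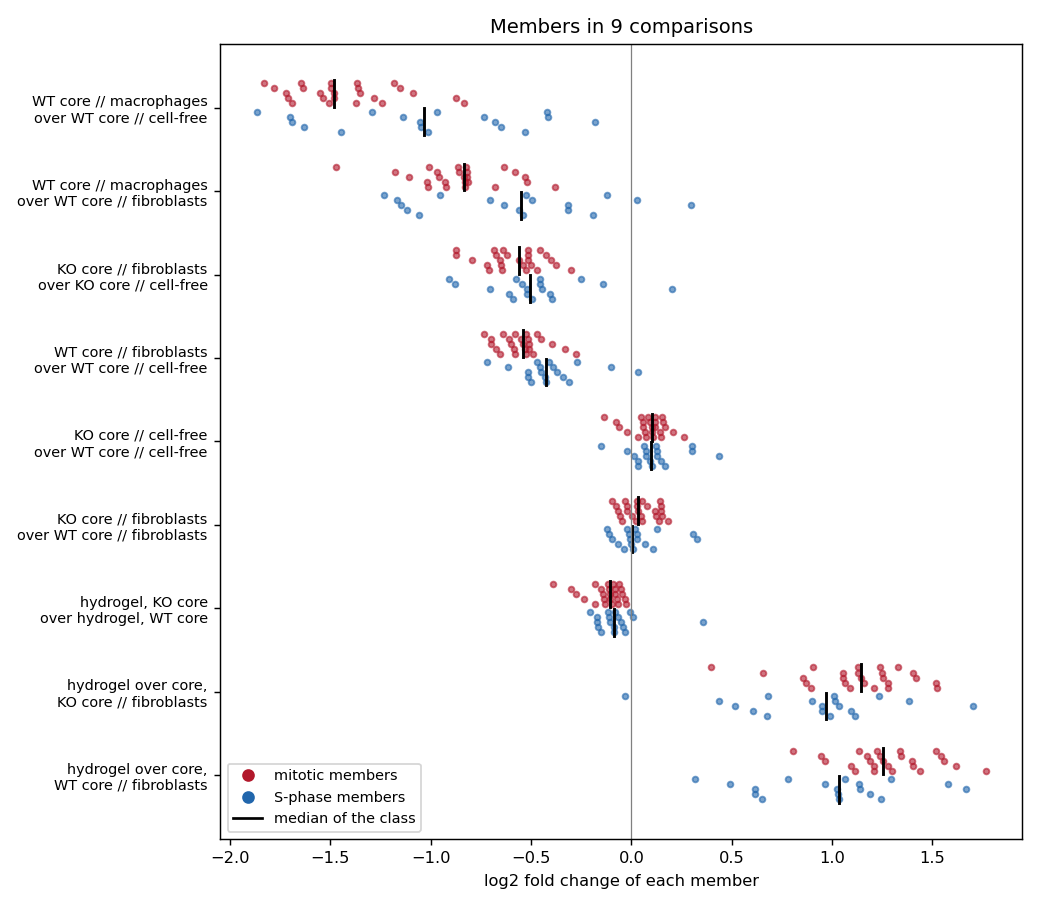
log2 fold change (x axis) of each member (points; mitotic in red, S-phase in blue) in 9 comparisons (y axis), with the median of each class as a black bar. The class medians lie at −1.48 and −1.03 for WT core // macrophages over WT core // cell-free and at 1.25 and 1.03 for hydrogel over core with WT core // fibroblasts, and near 0 in the 3 comparisons of KO with WT.

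S-phase and mitotic members moved together, and the S-phase members moved less, both where macrophage cores were lower and where hydrogels were higher. The S-phase minus mitotic score averaged 0.35 ± 0.19 in WT core // macrophages, 0.09 ± 0.09 in WT core // fibroblasts and −0.05 ± 0.08 in WT core // cell-free (SD, n = 4 each), and −0.11 ± 0.16 in hydrogel, KO core and −0.19 ± 0.12 in hydrogel, WT core (n = 6 each). All 4 macrophage cores (lowest 0.17) were above all 4 WT core // cell-free libraries (highest 0.07). They overlapped WT core // fibroblasts, where replicate 3 had 0.21. In KO cores this difference of scores averaged 0.07 ± 0.16 with fibroblasts (highest 0.32) and −0.02 ± 0.10 cell-free (SD, n = 4 each). Between groups the S-phase difference minus the mitotic difference was 0.40 for macrophages over cell-free (0.31 to 0.46 as each library was left out), 0.26 for macrophages over fibroblasts (0.17 to 0.32), −0.28 for hydrogel over core in WT assembloids (−0.31 to −0.24) and −0.18 in KO assembloids (−0.22 to −0.10). Within the title codes 150, 152 and 154 it was 0.35, 0.38 and 0.48 for macrophages over cell-free. No p is given for these scores, because the members were chosen with earlier results known. Inside the S-phase class the smallest differences were in Tk1, Tyms and Mcm7 for macrophages over cell-free and in Tk1 and E2f1 for hydrogel over core in both genotypes, while Rrm2 and Mcm5 lay beyond the mitotic median, with log2 fold changes of −1.63 and −1.69 in macrophages over cell-free and 1.58 and 1.30 in hydrogel over core for WT.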

How the data were processed

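Total RNA of tendon assembloid cores and hydrogels was sequenced from stranded, ribosome-depleted libraries. The deposited files hold raw counts per gene as whole numbers and are estimated counts that the authors made with kallisto 0.46.1 on GRCm39, per the submitters' notes. No source used here states the annotation release. Of 25700 gene IDs 25587 had a symbol. Libraries held 20360289 to 59860703 counts, and no pair of libraries held identical counts.

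The counts were tested in R 4.3.3 with edgeR 4.0.16 (filterByExpr, TMM scaling, quasi-likelihood F-test) on the groups compared, without a block. Calls are Benjamini-Hochberg adjusted p under 0.05 over all genes, with no fold threshold, and SE is the log2 fold change over the root of F. CPM used one TMM scaling over 32 libraries, and log2 CPM a prior count of 2. Exact two-sided permutation tests give at least p = 0.0286 for 4 against 4, 0.00476 for 6 against 4 and 0.00217 for 6 against 6. Alternatives were DESeq2 1.42.0 and its size factors, other filters and call rules, the replicate number or title code as a block, one fit over all cores, and leaving out each library. The script was tested on simulated counts. Per-library values are given for Mki67, Top2a, Ccnb1, Mcm5, Pcna and Tyms and, in each comparison, for the leading members by p of each class as far as described. Of each further list up to 3 genes of lowest p are named. The members and lists were chosen with earlier results of these data known.

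Same-numbered libraries deviated together (correlations of deviations from the group means, all over 0.1) in hydrogels KO over WT (0.17 to 0.53), macrophages over cell-free (0.14 to 0.29), macrophages over fibroblasts (0.13 to 0.18), fibroblasts over cell-free in KO cores (0.14 to 0.32) and hydrogel over core in WT (0.20 to 0.25) and KO (0.18 to 0.36) assembloids, so the number was taken to pair them there. The pairing comes from the data, and for hydrogel over core the title code and pool number took the place of the replicate number. The main calls did not use these pairs. They come from fits without a block, and a block entered only among the alternatives.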

Additional observations from a re-analysis of the deposited data

Results flagged for a closer look

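Dixon's criterion for a stray sample in groups of 4 to 6 marked 4 of 133 groups of values, where chance marks about 1 in 20. Cdc20 had 4.97 CPM in KO core // fibroblasts replicate 4, the lowest of its group, with the others at 6.32 to 6.53 CPM. Tk1 had 29.4 CPM in KO core // cell-free replicate 4, the highest of its group, with the others at 21.1 to 21.7 CPM. The S-phase score of KO core // fibroblasts replicate 2 was −0.54, below the others at −0.31 to −0.29. The S-phase minus mitotic score of KO core // fibroblasts replicate 4 was 0.32, above the others at −0.02 to 0.00. The cause of these was not tested.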

How the results depend on the processing

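The calls for macrophages over cell-free and over fibroblasts and for hydrogel over core kept their direction under every alternative run. In fibroblasts over cell-free, where edgeR called no member, DESeq2 called 4 in KO and 4 in WT cores. A rule of unadjusted p under 0.05 and a log2 fold change over 0.5 in size gave 24 in KO and 14 in WT cores. By the unadjusted p alone 11.7% of all genes passed in KO and 21.3% in WT cores, in either direction. The share of all genes under the full rule can be no larger. The replicate block gave 1 in KO and 3 in WT cores (Mki67, Cenpe and Tk1). In WT cores same-numbered libraries also share title code and pool number, whose meaning is not given, but not every pair's correlation was over 0.1 (−0.01 to 0.35), as in KO over WT with fibroblasts (−0.19 to 0.40) and cell-free (0.04 to 0.36), with 2 of 4 libraries closest to their own number in each. That count was also 2 of 4 for macrophages over cell-free, where every correlation was over 0.1, so it does not separate the comparisons taken as paired. The block moved no other count of calls by over 1.5 times. As each library was left out, the members called ran from 10 to 36 (macrophages over cell-free), 22 to 35 (macrophages over fibroblasts), 0 to 26 (fibroblasts over cell-free, KO cores), 0 to 1 (WT cores), 33 to 41 (hydrogel over core, KO) and 42 to 43 (WT). Why single libraries decide these counts was not tested, and the ranges are not set against the share of all genes called in each setting. Of the values for named genes under alternatives, 1637 kept direction and side of the threshold, 39 passed only under the alternative and 18 lost the call.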
